A study of Mus musculus with 43 samples.

Results

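The genes described here are 9 transcription factors and cofactors that mark, or are used by, upper-layer cortical neurons: Cux1, Cux2, Pou3f1, Pou3f2, Pou3f3, Mef2c, Rorb, Lmo4 and Lhx2. They were chosen by name, and each matched 1 of the 56980 genes in the count table. Their transcripts were counted in 43 bulk RNA-seq libraries, which form 13 groups by genotype, stage and sex. All mice were C57BL/6JRccHsd, and the cells were GFP-positive cells sorted from somatosensory cortex after in utero electroporation with a GFP plasmid, labelled as layer 2/3 (L2/3) neurons. At embryonic day 19 (E19) there were 4 female and 4 male libraries each of wild type (WT), Cux1 KO and Cux2 KO. At postnatal day 4 (P4) there were 3 female and 3 male libraries each of WT and Cux2 KO, and 2 libraries of male Cux1 KO. At P7 there were 2 female and 3 male WT libraries. The Cux2 KO was a germline null at both stages. The Cux1 KO was a germline deletion of the C-terminal part (Cux1 ΔC/ΔC) at E19, but at P4 it was made in the electroporated cells of mice with 1 floxed and 1 deleted allele, with a Cre recombinase plasmid and a Cre-dependent GFP plasmid, so allele and plasmids differed from those at E19 and from the P4 WT. The E19 libraries were sequenced in another round than the P4 and P7 libraries, so stage and round cannot be told apart.

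Upper-layer neurons are the last excitatory neurons of the cortex to be born, and send axons to other cortical areas, including through the corpus callosum. Cux1 and Cux2 are homeodomain proteins with CUT DNA-binding repeats that shape their dendrites and synapses. Pou3f1, Pou3f2 and Pou3f3 are POU-domain factors, of which Pou3f2 (Brn2) and Pou3f3 (Brn1) act together in the production and migration of these neurons. Mef2c is a MADS-box factor of neuronal maturation and synapse number, Rorb a nuclear receptor best known from layer 4, Lmo4 a LIM-only cofactor without DNA binding of its own, and Lhx2 a LIM-homeodomain factor of cortical progenitors.

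2 sets of sequence bear on what the values can show. The first is exon 23 of Cux1 (transcript with 24 exons, chr5:136308284-136308548 on GRCm39, minus strand, GENCODE annotation), the exon removed by Cre in the floxed allele. It holds 265 bases, all coding, out of 24248 bases of Cux1 exon in all, or 1.09%, so a count over the whole gene can hardly register its loss.
Cux1 exon 23: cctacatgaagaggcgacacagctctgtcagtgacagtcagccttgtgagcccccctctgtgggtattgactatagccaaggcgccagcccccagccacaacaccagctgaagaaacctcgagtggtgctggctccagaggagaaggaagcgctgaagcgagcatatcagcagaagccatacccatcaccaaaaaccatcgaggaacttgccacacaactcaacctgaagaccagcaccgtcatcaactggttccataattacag
The second set is 2 RefSeq promoters of members with the larger differences at P4, from GRCm38.p6 and shown 250 bases before to 50 after the start. 15 promoters of 8 of the 9 members were matched, and none of Pou3f1. Of the promoters matched to Cux2 and to Mef2c, the one shown is that with the most of the motifs below. The other Cux2 promoter (chr5:122049802-122050101) held none of them, and the other Mef2c promoters held CCAAT alone or AGGTCA alone. The motif ATCGAT, a core of CUX binding, was in 1 of the 15, a Cux2 promoter at chr5:122047776-122048075 (minus strand), and in 0.925% of all 32851 promoters of the same length. CCAAT was in 5 of the 15 and in 37.4% of all, AGGTCA, a nuclear receptor motif, in 2 of the 15 and in 16.3%, and the homeodomain motif TAATTA in 1 of the 15 and in 5.29%. The POU octamer ATGCAAAT and the longer MEF2 motif were in 0 of the 15, and in 1.74% and 0.164% of all. All motifs were searched on both strands, the capitals mark every match, and the Mef2c promoter at chr13:83523406-83523705 (plus strand) held CCAAT, the nuclear receptor motif and the homeodomain motif.
Cux2 promoter: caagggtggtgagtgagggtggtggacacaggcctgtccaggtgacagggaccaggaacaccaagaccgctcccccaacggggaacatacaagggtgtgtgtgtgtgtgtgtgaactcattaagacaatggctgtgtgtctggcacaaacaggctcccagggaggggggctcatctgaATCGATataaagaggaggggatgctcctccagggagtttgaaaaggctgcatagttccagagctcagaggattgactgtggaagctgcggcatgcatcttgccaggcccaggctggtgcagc
Mef2c promoter: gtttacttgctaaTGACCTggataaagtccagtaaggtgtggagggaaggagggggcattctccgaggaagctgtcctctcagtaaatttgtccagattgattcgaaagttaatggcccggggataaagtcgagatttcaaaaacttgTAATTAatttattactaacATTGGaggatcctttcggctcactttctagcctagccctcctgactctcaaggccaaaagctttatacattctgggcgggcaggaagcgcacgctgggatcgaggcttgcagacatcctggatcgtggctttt

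The labelled cell type was checked against its markers before the members were compared, in counts scaled to the library total (CPM), with all 43 libraries on 1 scale. At E19 the WT libraries held 1190 to 1770 CPM (median 1540) summed over 7 genes of pyramidal neurons (Neurod2, Neurod6, Slc17a7, Slc17a6, Rbfox3, Camk2a and Emx1). At P4 the same sum was 67.3 to 156 CPM in WT and at P7 26.3 to 101 CPM. Slc17a7, which encodes the vesicular glutamate transporter VGLUT1, had no count in 4 of the 6 WT P4 libraries. The sum of 10 astrocyte and radial glia genes was 1890 to 2830 CPM at E19, 4610 to 7640 CPM at P4 and 9860 to 14400 CPM at P7, and that of 8 oligodendrocyte lineage genes was 493 to 735, 631 to 3000 and 3290 to 5080 CPM. The P4 and P7 libraries thus had low levels of the defining markers of the labelled cell type and high levels of glial ones, and the part of this in the results below was not tested. In bulk libraries, fewer cells of a type and less RNA per cell cannot be told apart. Total counts were 13321095 to 20715732 at E19, 19499125 to 60559585 at P4 and 15312029 to 27633827 at P7.

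**Figure D1:**
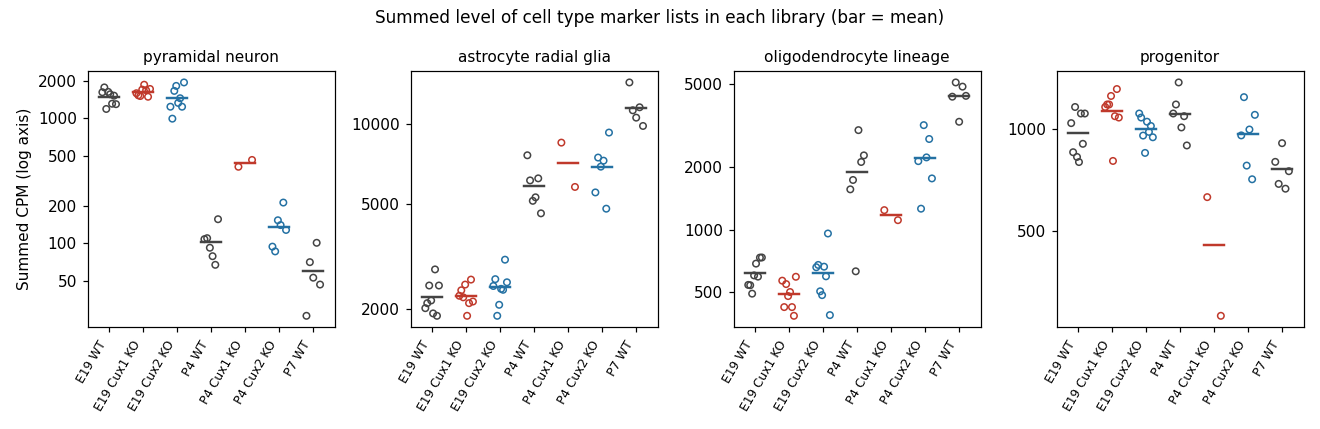
Summed CPM (log axis) of 4 marker lists in each library, by stage and genotype, with bars at the means. The pyramidal neuron sum is 995 CPM or more in every E19 library and at most 212 CPM in WT and Cux2 KO at P4, while the astrocyte and radial glia sum is higher at P4 and P7.

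Between E19 and P4 in WT, 5 of the 9 members fell and 1 rose past both thresholds (edgeR quasi-likelihood test, adjusted p under 0.05 over all genes tested and a log2 fold change, log2FC, over 1). Of all 20091 genes tested, 45.9% passed in either direction, 23.3% downwards and 22.6% upwards, and the members' median log2FC was -1.77 against 0.04 over all genes. Cux2 had 332 to 517 CPM at E19 (median 431, n = 8) and 28.1 to 46.5 CPM at P4 (median 33.1, n = 6). Its log2FC was -3.63 ± 0.148 (SE, adjusted p = 6.96e-11), the lowest among the members and within its SE of that of Pou3f1 below. Cux1 had 312 to 506 CPM at E19 (median 419) and 88.1 to 157 CPM at P4 (median 118). Its fall was smaller, with a log2FC of -1.77 ± 0.151 (adjusted p = 8.65e-08), and no P4 library of either gene reached the lowest E19 library.

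The POU factors differed in size of change. Pou3f1 had 134 to 203 CPM at E19 (median 160) and 10.9 to 18 CPM at P4 (median 13), a log2FC of -3.60 ± 0.14 (adjusted p = 4.97e-11). Pou3f3, the most abundant member at E19, had 1270 to 1560 CPM (median 1370) and then 191 to 342 CPM (median 287), a log2FC of -2.32 ± 0.109 (adjusted p = 2.26e-10). Pou3f2 had 415 to 579 CPM (median 479) and then 198 to 290 CPM (median 261). Its log2FC of -0.92 ± 0.094 had an adjusted p of 6.2e-07 and stayed inside the fold threshold, although its groups did not overlap. Pou3f1 shares 555 bases, 14.419% of its exon, with the opposite-strand lncRNA Gm2164. The library kit does not mark strand, so reads of the pair cannot be told apart. Gm2164 itself had at most 1.15 CPM in WT at E19. The same limit holds for Pou3f3, which shares 304 bases (3.931%) with Pantr1, and for Pou3f2, with 449 bases (8.037%) of Gm57099. Pantr1 had 190 to 326 CPM in WT at E19 and 151 to 514 CPM at P4. Cux1 (1.625%, Gm16599) and Lhx2 (4.201%, Gm75255) also share exon with opposite-strand lncRNAs.

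Lhx2 had 382 to 499 CPM at E19 (median 440) and 49.5 to 73.8 CPM at P4 (median 67.9), a log2FC of -2.72 ± 0.101 (adjusted p = 3.27e-11). Rorb was the member that rose, from 21.4 to 34.8 CPM (median 29.9) to 106 to 208 CPM (median 171), a log2FC of 2.55 ± 0.136 (adjusted p = 7.08e-10). Lmo4 was 118 to 157 CPM (median 123) and then 159 to 202 CPM (median 185), with a log2FC of 0.53 ± 0.0797 inside the fold threshold (adjusted p = 3.06e-05). Mef2c overlapped between the stages, with 50.8 to 412 CPM at E19 and 68.2 to 329 CPM at P4, and did not pass (log2FC -0.94 ± 0.425, adjusted p = 0.0642). Leaving out the WT P4 male replicate 3, the highest P4 library, gave Mef2c a log2FC of -1.42 and made it a called member, 7 in all, as did leaving out WT E19 female replicate 3 or WT E19 male replicate 4. In all, 8 of the 9 members did not overlap between the stages, against 44.9% of all genes tested.

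**Figure D2:**
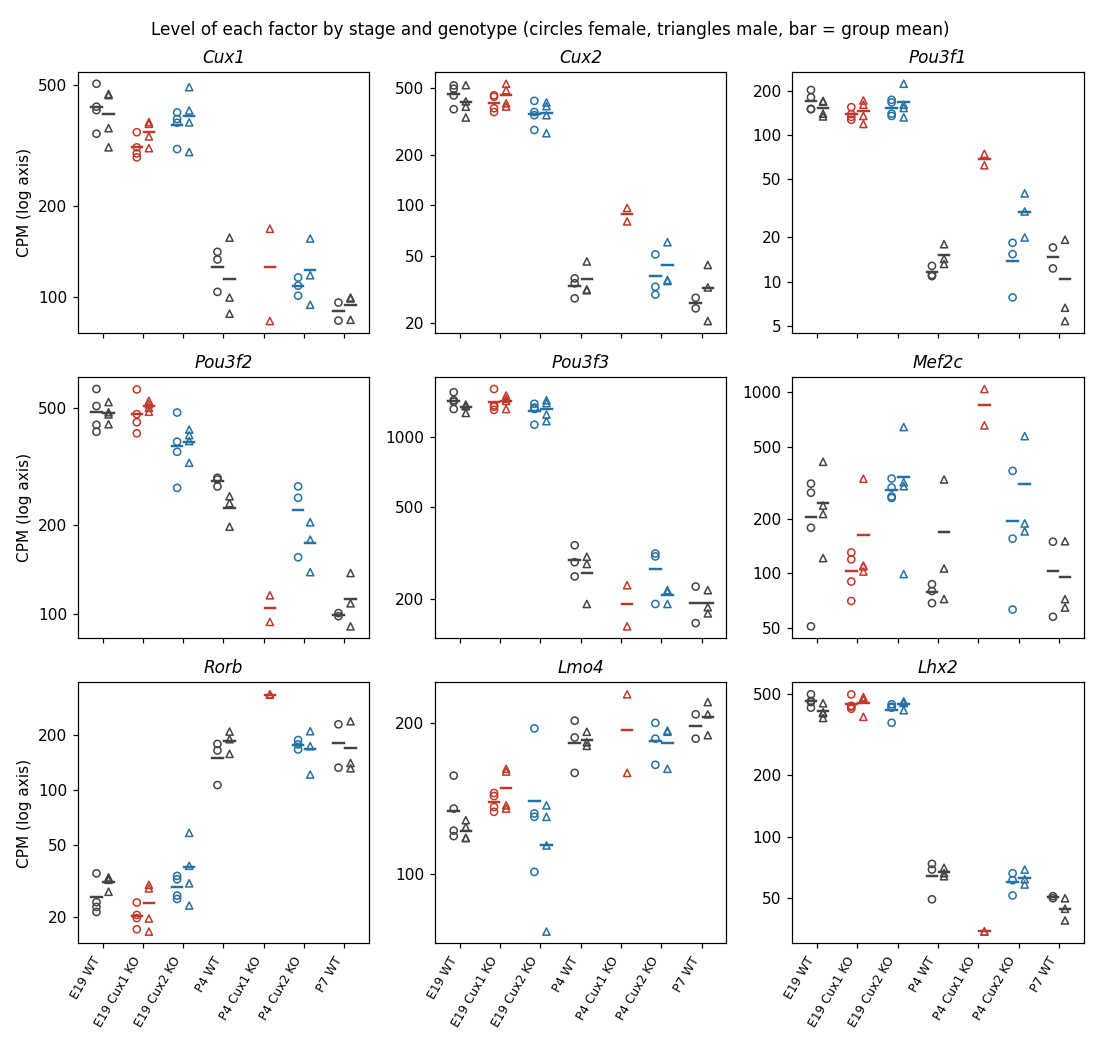
CPM (log axis) of each member in each of the 43 libraries, by stage and genotype, with circles for female, triangles for male libraries and bars at the group means. Cux1, Cux2, Pou3f1, Pou3f3 and Lhx2 lie lower at P4 than at E19 in WT and Cux2 KO, Rorb lies higher, and Mef2c is spread widely within groups.

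The Cux2 KO libraries gave the same 6 calls between E19 and P4, where 47.2% of 20537 genes passed, 23.5% downwards and 23.7% upwards. The log2FC was -1.72 for Cux1, -3.09 for Cux2, -2.94 for Pou3f1, -2.45 for Pou3f3, -2.80 for Lhx2 and 2.38 for Rorb. Pou3f2 was called as well, with a log2FC of -1.02, when Cux2 KO P4 female replicate 2 was left out, and also without Cux2 KO E19 female replicate 2. The change with stage was not shown to differ between Cux2 KO and WT for any member by the interaction test, in which the lowest adjusted p of a member was 0.505 and 43 of 21837 genes, 0.197%, passed. Cux2 (0.52 ± 0.213 less negative in Cux2 KO) and Pou3f1 (0.69 ± 0.283) had unadjusted p-values of 0.0217 and 0.0225. The change also was not shown to differ by sex in WT for any member (lowest adjusted p 0.344), where 0.0747% of genes passed.

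Other genes of the upper layers were read against the 22.6% of all genes that rose and the 23.3% that fell. Of 12 listed upper-layer genes, 8 fell and 1 rose from E19 to P4 in WT, with a median log2FC of -2.17. Among those that fell were Bhlhe22, a helix-loop-helix factor (-5.15 ± 0.331), and Mdga1, a cell adhesion gene (-4.88 ± 0.38). Of 11 tested paralogs and cofactors of the members, 4 rose and 2 fell, the LIM-domain binding protein gene Ldb1 with a log2FC of -4.25, Mef2b with 3.31 and Mef2d with -2.67. Of 10 deep-layer genes, 2 rose and 2 fell, a share near that of all genes in each direction, Tbr1, a marker of layer 6, with a log2FC of -4.63, Etv1 with 1.49 and Sox5 with 1.40. The median of that list was 0.18.

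Between P4 and P7, which were sequenced in the same round, only Pou3f2 passed among the 9 members, against 2.05% of 22385 genes. It had 198 to 290 CPM at P4 and 91.1 to 138 CPM at P7 (n = 5, median 101), with no overlap, where 6.83% of genes did not overlap. The log2FC was -1.24 ± 0.136 (adjusted p = 0.0036), and without any one library it ranged from -1.35 to -1.17 and stayed called. With females or males alone the log2FC was -1.51 and -1.02 and did not pass (adjusted p = 0.129 and 0.109). Lhx2 had an adjusted p of 0.0477 but a log2FC of -0.49, inside the fold threshold. Cux2 was 20.6 to 44.3 CPM at P7, Rorb 131 to 237 CPM and Lmo4 186 to 220 CPM, with log2FCs of -0.25, 0.05 and 0.13 that did not pass. Of the upper-layer list Unc5d fell (log2FC -2.05), and of the deep-layer list Bcl11b (-1.12) and Tbr1 (-2.70) fell.

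**Figure D3:**
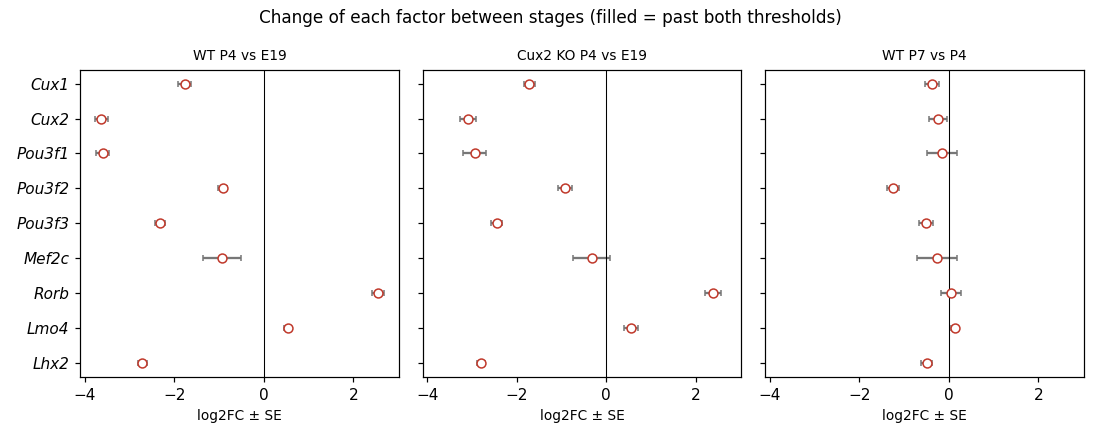
log2FC ± SE of each member between stages (3 panels: WT P4 vs E19, Cux2 KO P4 vs E19, WT P7 vs P4). All points are drawn open, whether or not the member passed both thresholds. By the tests, 6 members passed in each of the WT and Cux2 KO P4 vs E19 panels, and 1, Pou3f2, in the P7 panel.

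The targeted genes were then checked in the knockouts. In E19 Cux1 KO the Cux1 count was 289 to 378 CPM (median 325, n = 8) against 312 to 506 CPM (median 419) in WT. The groups overlapped, and the log2FC with sex as a covariate was -0.33 ± 0.0826 (adjusted p = 0.0864, edgeR), which did not pass. DESeq2 with its prior gave an adjusted p of 0.0181 and edgeR on unfiltered genes one of 0.0222. Over all alternatives it was 0.0181 to 0.198, with the log2FC inside the fold threshold in each. In P4 Cux1 KO males the Cux1 count was 83.3 and 168 CPM, against 88.1, 157 and 99.6 CPM in WT males (log2FC 0.12 ± 0.414). Cux2 in E19 Cux2 KO was 268 to 417 CPM (median 351) against 332 to 517 CPM (median 431) in WT, with a log2FC of -0.31 ± 0.101 (adjusted p = 0.353). At P4 it was 29.6 to 60.5 CPM against 28.1 to 46.5 CPM (log2FC 0.23 ± 0.189). Counts over the whole gene overlapped with WT in both knockouts at both stages. Neither the deleted C-terminal part nor single exons can be read from them.

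No member passed in any genotype comparison. By sex at E19, 0.0576% (female) and 0.0979% (male) of genes passed in Cux1 KO and 0.0287% and 0.121% in Cux2 KO, and at P4 0% in Cux2 KO of either sex. At E19 with both sexes, 44 of 18318 genes (0.24%) passed in Cux1 KO and 20 of 18356 (0.109%) in Cux2 KO. The other members with the lowest adjusted p-values were, in Cux1 KO, Rorb (16.7 to 30.1 against 21.4 to 34.8 CPM, log2FC -0.38 ± 0.122, adjusted p = 0.189) and Mef2c (70.1 to 332 against 50.8 to 412 CPM, log2FC -0.80 ± 0.312, adjusted p = 0.283), and in Cux2 KO, Pou3f2 (268 to 482 against 415 to 579 CPM, log2FC -0.35 ± 0.0946, adjusted p = 0.225). In females alone Mef2c was called in Cux1 KO when WT E19 female replicate 3 was left out (log2FC -1.31, adjusted p = 0.015); that library had the lowest Mef2c of all E19 libraries. At P4 with both sexes, 11 of 21878 genes (0.0503%) passed in Cux2 KO. There the largest member difference was that of Mef2c (62.9 to 571 against 68.2 to 329 CPM, log2FC 1.09 ± 0.488, adjusted p = 0.781), and Pou3f1 in males did not overlap (20, 40 and 30.1 against 18, 14.3 and 13.2 CPM, log2FC 0.98 ± 0.304, adjusted p = 0.615), where 12.5% of genes did not overlap. No member's genotype effect was shown to differ by sex (lowest adjusted p 0.962 for Cux1 KO at E19, 0.979 for Cux2 KO at E19 and 0.739 at P4; 0% of genes passed in each), and no member passed between WT females and males at E19, P4 or P7 (lowest adjusted p 0.992, 0.694 and 1, with 0.0461%, 0% and 0.0247% of genes passing).

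The largest differences from WT were those of the 2 P4 Cux1 KO libraries, in a comparison of 2 against 3 libraries in which edgeR called none of 19601 genes (0%; 4021 genes had an unadjusted p under 0.05, and DESeq2 called 2273 genes with its prior). Without Cux1 KO P4 male replicate 2, edgeR called 639 genes, no member among them, with the lone knockout library assumed to vary like WT. Pou3f1 was 62.2 and 74.5 CPM in Cux1 KO against 18, 14.3 and 13.2 CPM in WT (log2FC 2.16 ± 0.266, adjusted p = 0.0764). Mef2c was 655 and 1040 against 106, 71.9 and 329 CPM (log2FC 2.32 ± 0.708, adjusted p = 0.162), and its log2FC without any one library was 1.94 to 3.28, highest without WT P4 male replicate 3. Cux2 was 80.4 and 96.6 against 31.7, 31.4 and 46.5 CPM (log2FC 1.26 ± 0.262, adjusted p = 0.0905). These 3 members were higher in both knockout libraries than in any WT male library. Rorb was 331 and 333 against 189, 157 and 208 CPM (log2FC 0.83 ± 0.17, adjusted p = 0.0899). Pou3f2 was 116 and 94.3 against 251, 238 and 198 CPM (log2FC -1.14 ± 0.194, adjusted p = 0.0766), and Lhx2 34.4 and 34.5 against 66.5, 64.2 and 70.6 CPM (log2FC -0.98 ± 0.186, adjusted p = 0.0845), both lower in every knockout library. Cux1, Pou3f3 and Lmo4 overlapped. So 6 of 9 members did not overlap, against 41.7% of all genes tested, whose median log2FC was -0.18. DESeq2 called Pou3f1, Mef2c, Cux2 and Pou3f2, and edgeR with all groups of the stage in 1 fit called Pou3f1, Cux2 and Pou3f2.

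Beside these values, the P4 Cux1 KO libraries also stood apart in marker content. Their pyramidal neuron sums were 410 and 465 CPM, above the 78.9, 67.3 and 156 CPM of the WT males. Microglia genes summed to 15.9 to 16.7 CPM against 45 to 78.1 CPM in WT at P4, and 6 ciliated cell genes to 2.71 to 4.07 against 31.6 to 187 CPM. Endothelial and mural genes summed to 0.201 and 86.5 CPM against 151 to 547 CPM, and interneuron genes to 181 and 301 against 372 to 1180 CPM. The astrocyte and radial glia sums of 5800 and 8530 CPM compare with 4610 to 7640 CPM in WT. They also had the fewest detected genes of the 43 libraries, 17049 and 19115, against 20844 or more in the other P4 libraries. The progenitor sum was 282 and 630 CPM against 894 to 1370 CPM, and Eomes had no count in either library. The authors noted that Cux1 KO neurons died more often during dissociation. The part of cell content, of detected genes or of the Cre plasmid in these differences was not tested.

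**Figure D4:**
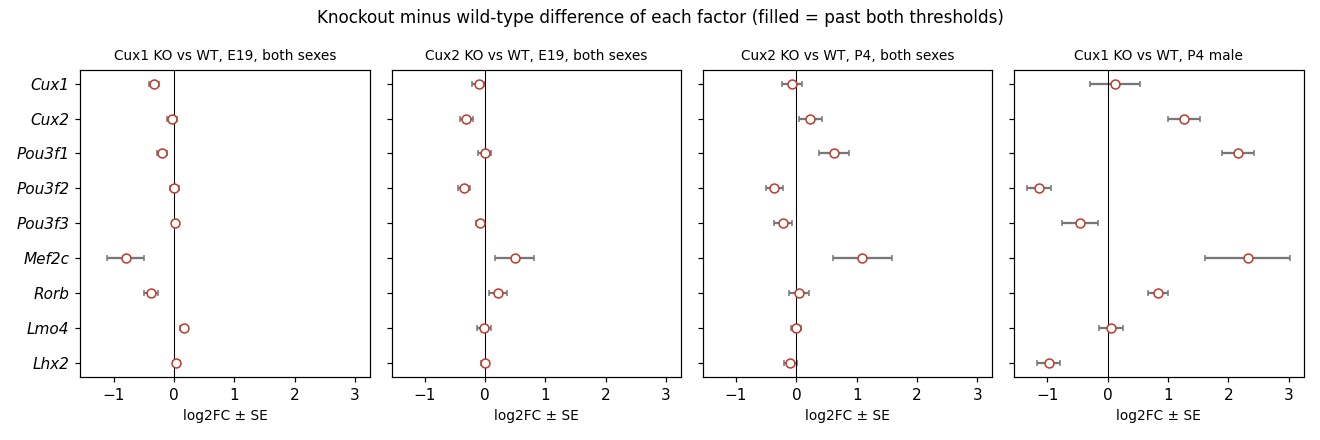
Knockout minus WT log2FC ± SE of each member in 4 comparisons, with all points drawn open. By the tests, no member passed both thresholds in any of them. The P4 Cux1 KO panel holds the largest differences, with Mef2c at 2.32 and Pou3f1 at 2.16.

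Across the 12 P4 libraries of WT and Cux2 KO, the members differed in how they followed the pyramidal neuron sum, a relation looked for after the values were seen (18 relations, permutation tests with 100000 resamples, adjusted together). Libraries were shuffled across genotype and sex, so these p-values do not separate relations within groups from differences between groups. Cux2 followed it with Pearson's r = 0.888 (permutation p = 4e-05, adjusted 0.00036) and Spearman's rho = 0.888 (permutation p = 0.00028, adjusted 0.00252). Mef2c did so with r = 0.875 (permutation p = 0.00011, adjusted 0.00066) and rho = 0.825 (permutation p = 0.00164, adjusted 0.0067). Pou3f2 and Pou3f3 went the other way, with r = -0.796 (permutation p = 0.00183, adjusted 0.00471) and r = -0.784 (permutation p = 0.00315, adjusted 0.00709), and rho of -0.671 (permutation p = 0.0203, adjusted 0.0406) and -0.713 (permutation p = 0.0122, adjusted 0.0275). Without the 2 libraries farthest from the median sum, r was 0.858 for Cux2, 0.806 for Mef2c, -0.785 for Pou3f2 and -0.854 for Pou3f3. Within WT and within Cux2 KO r was 0.826 and 0.926 for Cux2, 0.723 and 0.93 for Mef2c, -0.358 and -0.953 for Pou3f2 and -0.686 and -0.795 for Pou3f3. Rorb (r = 0.161), Lmo4 (0.275), Cux1 (-0.179) and Lhx2 (-0.0822) showed no relation past the threshold, nor did Pou3f1 (0.598, adjusted permutation p = 0.0647). For Pou3f1, r was -0.495 within WT and 0.845 within Cux2 KO. At E19, over 24 libraries, Pou3f2 and Pou3f3 instead went with the sum (r = 0.615 and 0.769, adjusted permutation p = 0.00471 and 0.00018), as did Cux2 (r = 0.63, adjusted permutation p = 0.00471), Lhx2 (0.611, 0.00471), Pou3f1 (0.57, 0.00722) and Cux1 (0.451, 0.0486). Without the 2 libraries farthest from the median sum at E19, r was 0.443 for Pou3f2, 0.694 for Pou3f3 and 0.528 for Cux2. It was 0.468 for Lhx2, 0.65 for Pou3f1 and 0.39 for Cux1. Mef2c (r = 0.205, adjusted permutation p = 0.466), Rorb (0.0534, 0.803) and Lmo4 (-0.406, 0.0767) did not pass at E19 with the genotypes pooled. Within WT, Cux2 KO and Cux1 KO at E19, r was 0.753, 0.423 and 0.563 for Mef2c and 0.34, 0.423 and 0.177 for Rorb. For Lmo4 it was 0.00529, -0.9 and 0.511, and for Cux1 0.869, 0.794 and 0.676. For Pou3f2 it was 0.566, 0.712 and 0.553, and for Pou3f3 0.831, 0.804 and 0.691. For Cux2 it was 0.778, 0.554 and 0.901, for Lhx2 0.394, 0.742 and 0.8, and for Pou3f1 0.789, 0.841 and 0.909. These values within genotypes were not tested.

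**Figure D5:**
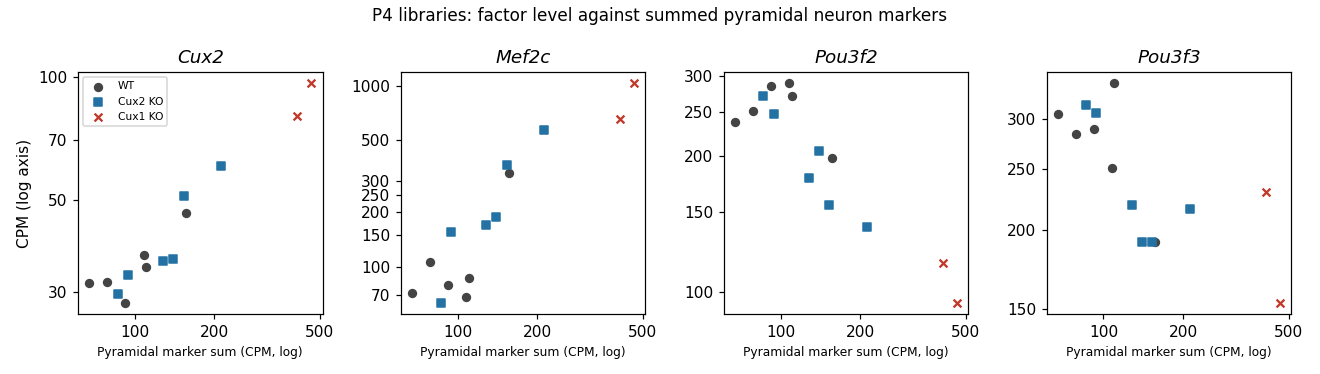
CPM of Cux2, Mef2c, Pou3f2 and Pou3f3 against the pyramidal neuron sum in each P4 library (both axes log), with genotype by colour and shape. In WT and Cux2 KO, Cux2 and Mef2c go up with the sum and Pou3f2 and Pou3f3 go down; the 2 Cux1 KO libraries lie at the right, at 410 and 465 CPM.

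Mef2c had the widest spread at E19, from 50.8 to 641 CPM over the 24 libraries. In deviations from the group means, it went most closely with Dync1i1 (r = 0.97), Osbpl1a (0.962) and Ntsr1 (0.96), a neurotensin receptor of layer 6 neurons, among 11071 genes, a search made after its spread was seen. Ntsr1 was 7.7 CPM in the WT female library with 50.8 CPM of Mef2c and 69 CPM in the Cux2 KO male library with 641 CPM. Over the 13 group means, genes most like each member, of 11516 protein-coding genes with a mean of 5 CPM or more, were Add2 and Aff3 for Cux1 (r = 0.996 and 0.994), Enc1 for Cux2 (0.996), Clmp and Tafa2 for Pou3f1 (0.995 and 0.994), Nasp and Mapk1ip1l for Pou3f2 (0.99 and 0.986), Cct2 and Pam for Pou3f3 (both 0.998), Sh3gl2 and Plk2 for Mef2c (0.941 and 0.935), Asph and Prkcb for Rorb (0.997 and 0.995), Cox17 and C1galt1c1 for Lmo4 (0.97 and 0.968) and Prpf8 and Clasp1 for Lhx2 (0.999 and 0.998). The 13 means share the split between stages, and 221 genes had r over 0.99 with Lhx2 but none with Mef2c, Lmo4 or Pou3f2.

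Per kilobase of exon (union of all exons), WT levels at E19 were highest for Pou3f3 (180 CPM per kilobase), Pou3f2 (86.4) and Lhx2 (82.6) and lowest for Rorb (2.57). At P7 the order was led by Lmo4 (44.7), Pou3f3 (24.9) and Pou3f2 (19.3), and Cux2 (2.65) was lowest. With the longest transcript as length, 12 of the 27 ranks moved, while Pou3f3 stayed first at E19 and Lmo4 first at P7. At P4 Pou3f2 was first by the exon union (45.8, with Lmo4 at 40.6) and Lmo4 by the longest transcript (86.4, with Pou3f2 at 45.8). Over the 13 groups, ordered by mean CPM, neighbours mostly overlapped in their ranges, in 12 of 12 pairs for Lmo4, 11 for Mef2c and Pou3f3, 10 for Cux1, Cux2, Pou3f2 and Rorb, 9 for Pou3f1 and 8 for Lhx2. The highest group mean was 17.3 times the lowest for Cux2, 16.4 times for Pou3f1, 16.3 times for Rorb and 1.79 times for Lmo4.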

How the data were processed

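RNA was sequenced from sorted GFP-positive cells of somatosensory cortex. The authors aligned the reads to GRCm39 with HISAT2, removed duplicates, and counted them with featureCounts over an Ensembl annotation of that build; the strand setting is not given in the sources used here. The deposited table holds raw counts per gene, not normalized, and 43 columns were used. No column was left over. The groups follow the labels. The members and gene lists were chosen with earlier results of these data known. Replicates are separate libraries, and the labels do not say that they came from separate animals, so p-values measure the spread between libraries.

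For each comparison, edgeR 4.0.16 (R 4.3.3; TMM, filterByExpr, quasi-likelihood test) was fitted on all genes of the groups compared, with sex as a covariate where both sexes entered. A gene was called when its p, adjusted by Benjamini-Hochberg, was under 0.05 and its log2FC was over 0.5 at E19 or over 1 at P4, P7 and between stages; interaction terms needed the adjusted p only. Fold changes come from these fits, and levels are CPM on 1 TMM scale over the 43 libraries (prior count 2 for log2). DESeq2 1.42.0 was run on every comparison as an alternative. The other alternatives were run where they apply, with single-sex fits for the stage comparisons alone, an unadjusted threshold for interaction terms and no fold threshold for the rest. Code was tested on simulated counts. In a design of 2 against 3 libraries, as for P4 Cux1 KO, edgeR called none of the altered genes. DESeq2, run there without its prior, made more false calls than its threshold allows in every design simulated, 19% to 77.6% of its calls. The edgeR share was 0% to 7.98%. The 0% was that of the 2 against 3 design, where edgeR recovered no altered gene and made no false call. Its share was also above the threshold in the designs of E19 Cux1 KO with both sexes and of the Cux2 KO effect by stage (7.98%). The simulations altered 100 genes by a log2FC of 1 and 100 by 2 in size, and applied no fold threshold. The shares need not hold for calls on the real counts. In the design of E19 Cux1 KO with both sexes, 19% of DESeq2 calls and 7.83% of edgeR calls were false. Named genes were the members, the called genes of 3 lists (at most the 3 largest per list and comparison), and the 2 most similar genes per member, except that 2 genes picked by these rules are not reported here. Gene IDs of the table were matched to GENCODE M39 on GRCm39 (56236 of 56980). Deviations of same-numbered libraries had mean correlations of -0.0813 to 0.234, and none of the 8 comparisons with 3 or more pairs had every pair over 0.1. The highest mean was that of WT females and males at P7, whose 2 pairs had 0.194 and 0.273. No 2 libraries of a group agreed within sampling noise.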

Additional observations from a re-analysis of the deposited data

Results flagged for a closer look

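Of 54 checks of a member in a group of 4 libraries, 2 had 1 library far from the other 3 by Dixon's test. Mef2c had 332 CPM in Cux1 KO E19 male replicate 1, against 102 to 110 CPM in the other 3 libraries. Lhx2 had 387 CPM in Cux1 KO E19 male replicate 3, below the rest of its group. Chance flags about 1 in 20 groups. No member's genotype or stage effect was shown to differ between the groups by an interaction test.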

How the results depend on the processing

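The 6 calls between E19 and P4 held under every alternative run, in WT and in Cux2 KO, and the count ranged from 6 to 7 without any one library. With male libraries alone Pou3f2 was called as well (log2FC -1.03 in WT and -1.15 in Cux2 KO). With female libraries alone it was not (-0.75 and -0.72), but Mef2c was in WT (-1.35). Without the fold threshold Pou3f2 and Lmo4 were called too. No member was called in the P4 Cux1 KO comparison, but 4 were with DESeq2, with its prior or without it (added after the data were seen), and 3 when all groups of the stage shared one fit. It gave 0 members without any one library and with the replicate block, which says nothing of stability, since edgeR called no gene at all there with every library in, and 639 genes without Cux1 KO P4 male replicate 2. In E19 Cux1 KO females, 1 member, Mef2c, was called with no filter on low counts, and 0 to 1 without any one library. Between P4 and P7, 1 member was called without any one library, 2 with no fold threshold, and 0 with female or male libraries alone. At an unadjusted p under 0.05, 1 member's change from E19 to P4 differed by sex and 2 members' Cux2 KO effects differed by stage. The replicate block changed no call of a member. The cause of these changes was not tested. With 2 libraries of P4 Cux1 KO, the comparison has few degrees of freedom.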
